A study of Mus musculus with 6 samples.

Results

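Liver RNA pools of alcohol-treated and control mice were read for 10 genes whose products belong to the exocrine pancreas. The genes were Ctrb1, Ctrc, Ctrl, Ela1, Ela2a, Cel, Clps, Pnliprp1, Amy2 and Sycn, and they were taken as every probe that carried one of these names on the arrays, which gave 11 probes of 41174 and 10 gene names of 27962. The genes were chosen by their signals and log ratios on these same arrays, so their alcohol against control values are a description and no test was made of them. At 4 months of treatment Ela2a was 13.4-fold and Pnliprp1 5.36-fold higher in the alcohol pool than in the control pool, and the other 8 genes lay between 1.01-fold and 1.32-fold by their brightest probe, with Ela1 at 1.93-fold by its other probe. At 1 and 2 months none of the 10 averaged ratios was 2-fold in either direction, with Ela2a then at or near background. Pnliprp1 was well above background at 1 month on only 1 of 2 arrays in the alcohol pool and 0 of 2 in the control pool.

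Male 129/Sv mice that were 6 to 8 weeks old at the start were given a Lieber-DeCarli liquid diet with 4% ethanol, or an isocaloric diet in which maltose dextran took the place of the ethanol. All animals had first been kept on the control liquid diet. After 1, 2 or 4 months liver RNA of 6 mice per arm was combined in equal amounts, which gave 1 alcohol pool and 1 control pool per month, 6 pools in all. Each pair of pools was hybridized to 2 two-color whole-genome arrays with the dyes exchanged, so that both arrays of a month hold the same RNA, and the SD given here is the spread between these 2 arrays and not between mice. The array with the alcohol pool in Cy5 is called the Cy5 array, and the one with the alcohol pool in Cy3 the Cy3 array. The 2- and 4-month arrays shared a slide that did not hold the 1-month arrays, so slide and month cannot be told apart when a level is followed from 1 month on. Between 73.3% and 90.3% of spots were well above background in a pool, and precision is limited by there being 2 arrays per month.

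Acinar cells of the pancreas make the enzymes that digest food as inactive precursors, store them in zymogen granules and release them into the duct. Their genes are among the most strongly expressed of any tissue and are switched on together by the PTF1 complex, which binds an E-box next to a TTTCCC element. The liver is not a textbook site of expression for most of them. In pooled tissue RNA, fewer cells of a type and less RNA per cell cannot be told apart.

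The sequence before the transcription start is shown for the pair of genes with the largest 4-month ratios and for Cela1, the current name of Ela1, as a member with a smaller ratio that carries both elements. Promoter windows of 250 bases before the start were read from RefSeq (assembly GRCm38.p6) for 7 of the 10 genes, 5′ to 3′ on the strand of the gene, and capitals mark the TTTCCC element and the E-boxes CACCTG and CAGCTG on either strand. Cela2a, the current name of Ela2a, starts on the minus strand and its window is chr4:141826006-141826255. The Pnliprp1 window is chr19:58728637-58728886 on the plus strand, and the Cela1 window is chr15:100687921-100688170 on the minus strand.
Cela2a: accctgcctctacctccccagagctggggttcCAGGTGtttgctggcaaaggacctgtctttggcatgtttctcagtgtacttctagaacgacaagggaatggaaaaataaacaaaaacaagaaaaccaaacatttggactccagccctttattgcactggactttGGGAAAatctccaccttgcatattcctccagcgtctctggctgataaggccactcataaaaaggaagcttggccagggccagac
Pnliprp1: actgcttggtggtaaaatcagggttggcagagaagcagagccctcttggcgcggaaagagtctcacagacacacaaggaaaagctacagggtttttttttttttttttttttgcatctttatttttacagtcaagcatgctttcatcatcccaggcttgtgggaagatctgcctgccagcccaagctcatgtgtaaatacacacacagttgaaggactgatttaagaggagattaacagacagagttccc
Cela1: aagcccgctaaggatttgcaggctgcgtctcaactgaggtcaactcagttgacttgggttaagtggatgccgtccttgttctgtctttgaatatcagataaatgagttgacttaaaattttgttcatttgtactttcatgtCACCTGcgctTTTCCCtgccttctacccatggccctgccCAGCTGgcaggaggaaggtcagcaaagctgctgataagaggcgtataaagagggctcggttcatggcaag
The Cela2a window held 1 TTTCCC match, 84 bases before the start on the opposite strand, and 1 CACCTG match at 218 bases. The Cela1 window held TTTCCC at 99 bases, CACCTG at 109 bases and CAGCTG at 70 bases before the start. No match was found in the Pnliprp1 window. Of the 7 windows, 5 held one of these E-boxes, 4 held TTTCCC and 4 held both, while Pnliprp1 and Sycn held neither. Both means anywhere in the window, with no limit on the distance between the elements. CACCTG and TTTCCC lay at 218 and 84 bases in Cela2a, and so not next to each other, but at 109 and 99 bases in Cela1. Among all 32851 promoter windows of this length, 21.9% held TTTCCC, 27.7% held one of these E-boxes and 5.91% held both. Ela2a and Pnliprp1, which had the largest ratios at 4 months, thus differed in these letters, and a match is a description of the sequence only.

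Signals below are the processed signals of a channel, in arbitrary units after background and dye correction, and ratios are log2 of alcohol over control averaged over the 2 arrays of a month. Each probe binds and labels differently, so a level is compared only with the same probe in another pool. Ela2a encodes a pancreatic elastase, a serine protease that cuts elastin and other proteins. At 4 months its signal was 1516 in the alcohol pool and 111 in the control pool on the Cy5 array, and 1166 and 88.6 on the Cy3 array. Both alcohol readings were far above both control readings. The log2 ratio was 3.75 ± 0.04 (SD over 2 arrays), with a modeled error of 0.31 from the scanner software. At 1 month the signal was 34.2 and 32.3 in the alcohol pool against 44.9 and 37.4 in the control pool, and neither pool was well above background, so the log2 ratio of -0.30 holds no level. At 2 months it was 25.6 and 18.8 in the alcohol pool against 51.8 and 19.1 in the control pool, where only 1 control reading was well above background. The log2 ratio was -1.02 on the Cy5 array, and on the Cy3 array no reading was well above background. Since the alcohol pool was at background, the -1.02 is not a measured size. The 2-month ratio has only a bound, at least 1.23-fold lower in alcohol, which rests on that 1 control reading.

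Ela1 encodes another elastase and was the only member with 2 probes. Its brighter probe read 7192 and 4837 in the alcohol pool at 4 months and 5582 and 4092 in the control pool. The alcohol pool was higher on each array, but the readings of the pools overlapped across arrays. The log2 ratio was 0.30 ± 0.09 with a modeled error of 0.16. The other probe read 1844 and 1342 in the alcohol pool against 952 and 702 in the control pool, with no overlap. Its log2 ratio was 0.95 ± 0.01, or 1.93-fold, just short of 2-fold. At 1 month that probe was at -0.18 and at 2 months at -0.43, while the brighter probe was at -0.05 and 0.02. The probes of Ela1 therefore gave different sizes at 4 months. At 2 months the brighter probe had mixed signs, 0.20 on the Cy5 array and -0.15 on the Cy3 array. The other probe was then below 0 on both, at -0.34 and -0.52.

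The other proteases were the chymotrypsins, which cut after large hydrophobic residues. Ctrc, chymotrypsin C, which also acts on other zymogens, read 21314 and 15751 in the alcohol pool at 4 months and 14671 and 13225 in the control pool. Its log2 ratio was 0.40 ± 0.20 with a modeled error of 0.09, after 0.03 at 1 month and 0.10 at 2 months. By the brightest probe of each gene Ctrc had the largest ratio after Ela2a and Pnliprp1, and both of its alcohol readings lay above both control readings. Ctrb1, chymotrypsinogen B, read 25210 and 19392 against 20276 and 16957, a log2 ratio of 0.25 ± 0.09. Ctrl, a chymotrypsin-like protease, read 9875 and 8372 against 9308 and 8708, a log2 ratio of 0.01 ± 0.10. The pools overlapped for both genes, and Ctrl was the only one of the 10 whose arrays disagreed in sign at 4 months.

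Of the lipid-digesting members, Pnliprp1 encodes a relative of pancreatic lipase. It read 683 and 484 in the alcohol pool at 4 months and 105 and 109 in the control pool, with no overlap. The log2 ratio was 2.42 ± 0.38 with a modeled error of 0.25. At 1 month it was 104 and 31.3 in the alcohol pool against 71.3 and 35.4 in the control pool, where only 1 alcohol reading was well above background and the arrays had opposite signs, 0.54 and -0.18. At 2 months it was 63.6 and 45.7 against 59.7 and 43.0, a log2 ratio of 0.09, which is below its modeled error of 0.25. Of the 3 months, only 4 months gave Pnliprp1 a ratio past 2 modeled errors. Cel, a lipase that is activated by bile salts, read 9196 and 7251 at 4 months in the alcohol pool and 6516 and 7063 in the control pool. Its log2 ratio was 0.27 ± 0.32, with 0.50 on the Cy5 array and 0.04 on the Cy3 array. Clps, the colipase that anchors pancreatic lipase to fat droplets, read 14047 and 10137 against 11056 and 8953, a log2 ratio of 0.26 ± 0.12. The alcohol readings of Cel lay above both control readings, by little on the Cy3 array, and the readings of Clps overlapped between the pools.

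Amy2, the pancreatic amylase that breaks down starch, read 9658 and 7871 in the alcohol pool at 4 months and 8180 and 5456 in the control pool. The log2 ratio was 0.38 ± 0.20 with a modeled error of 0.14, and it had been -0.23 ± 0.14 at 1 month and -0.08 ± 0.29 at 2 months. Amy2 was lower in the alcohol pool on both 1-month arrays and higher on both 4-month arrays. The pancreatic and salivary amylase genes are closely related, and their probes may share RNA. Amy1, read here in the salivary gland list, was by its brightest probe at -0.37 ± 0.24, -0.38 ± 0.45 and -0.19 ± 0.64 at 1, 2 and 4 months. It was lower in alcohol on both arrays at 1 and 2 months, and the arrays differed in sign at 4 months. The part of Amy1 RNA in the Amy2 signal was not tested. Sycn encodes syncollin, a protein of the zymogen granule membrane rather than an enzyme. It read 21331 and 17286 against 20170 and 15729 at 4 months, a log2 ratio of 0.11 ± 0.04, which is below its modeled error of 0.15.

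**Figure D1:**
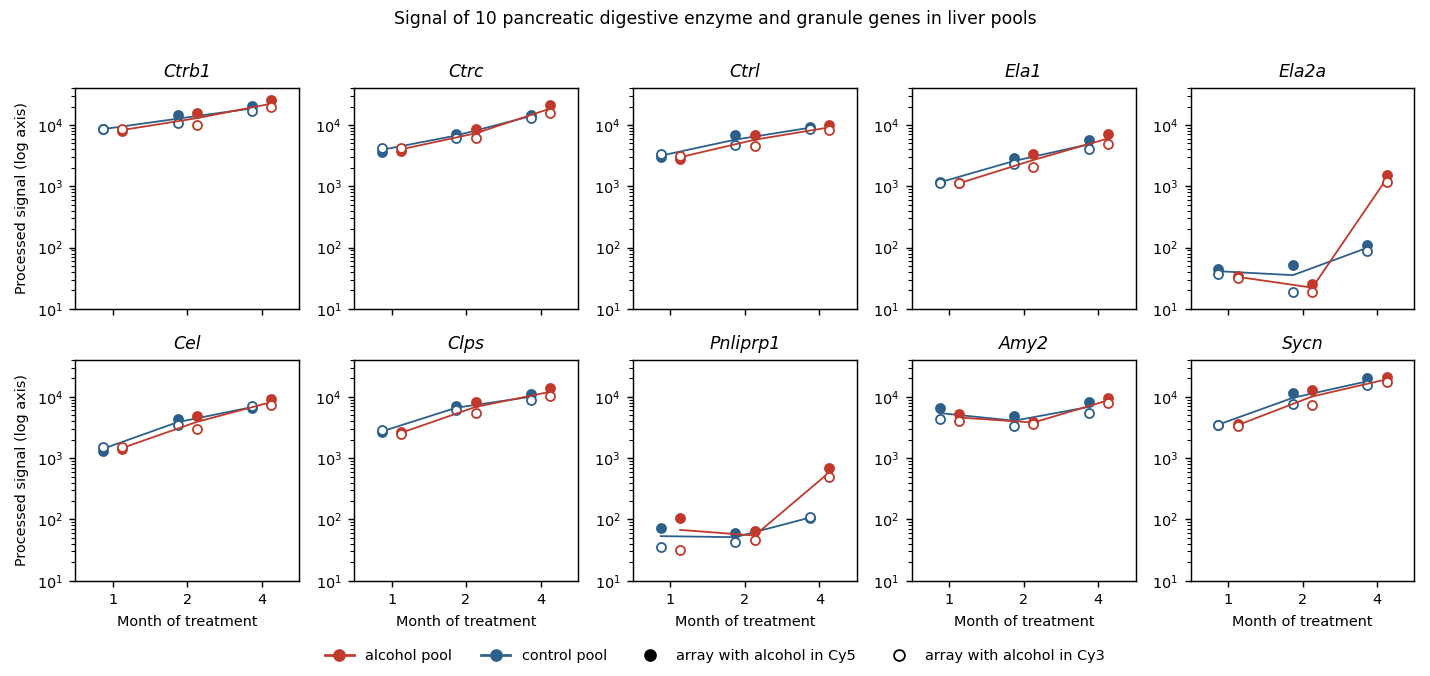
Processed signal (log axis, arbitrary units) of each gene by month, with the alcohol pool in red and the control pool in blue, filled points for the Cy5 array, open points for the Cy3 array and lines through the mean of the 2 arrays. For Ela1 the brighter probe is drawn. Ela2a and Pnliprp1 separate at 4 months, where Ela2a reads 1516 and 1166 in the alcohol pool against 111 and 88.6, and the other 8 genes have 4-month folds, averaged over the arrays, of 1.01 to 1.32.

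As a group, the 10 genes had median log2 ratios of -0.05, 0.02 and 0.29 at the successive months, and the median of all probes was -0.0011 at 4 months. Members raised at least 2-fold numbered 0, 0 and 2 at 1, 2 and 4 months, and those lowered at least 2-fold 0 at each month. Among all probes, 0.148%, 0.231% and 0.444% were raised at least 2-fold at these months and 0.0874%, 0.192% and 0.367% were lowered. Nothing is read from that share, since the genes were named from this comparison. The 2 raised genes were Ela2a and Pnliprp1, and the nearest below the 2-fold mark was Ctrc at 1.32-fold by the brighter probe of each gene. At 4 months 9 of the 10 genes were above 0 on both arrays, against 15.8% of all probes, and at 1 and 2 months 1 gene was, against 31.1% and 16.4%. At 1 month 4 genes were below 0 on both arrays, against 22.2% of all probes, and one of them was Ela2a, which was not above background. Ratios were past 2 modeled errors for 0, 0 and 4 genes, against 2.76%, 7.20% and 10.5% of all probes. The 4 were Ela2a, Pnliprp1, Ctrc and Amy2. These counts are by the brightest probe, and the other Ela1 probe was also past 2 modeled errors, lower in alcohol at 2 months and higher at 4 months, which makes 0, 1 and 5 genes by any probe.

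**Figure D2:**
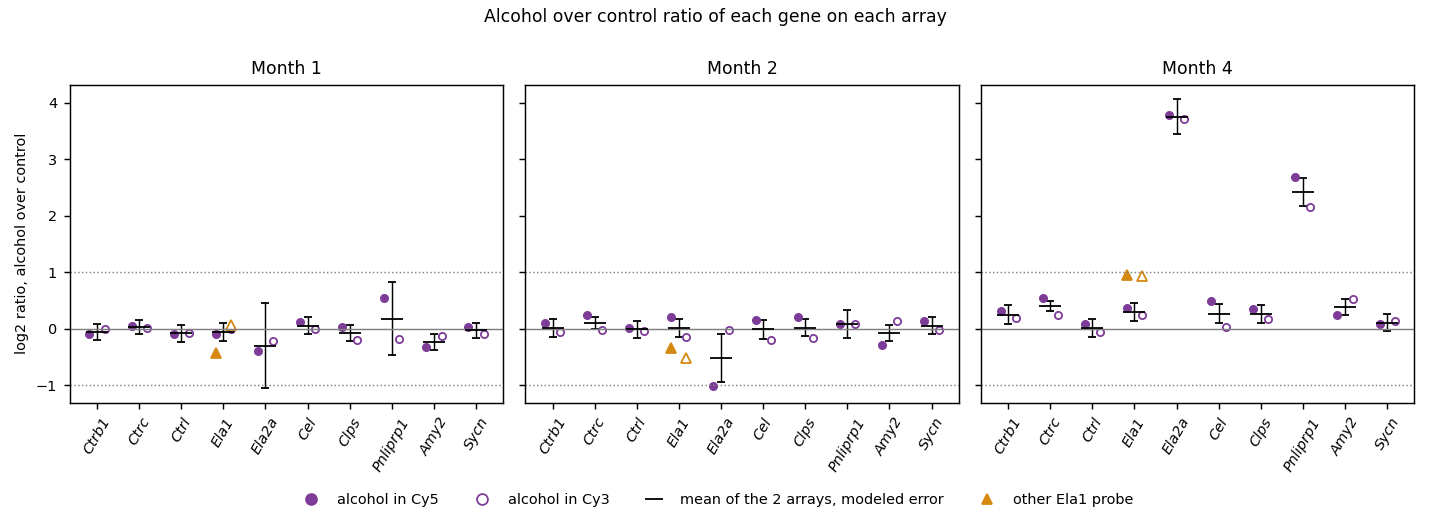
Log2 ratio of alcohol over control for each gene at 1, 2 and 4 months, with filled points for the Cy5 array, open points for the Cy3 array, bars for their mean with the modeled error, and triangles for the other Ela1 probe. Dotted lines mark 2-fold. Only Ela2a at 3.75 and Pnliprp1 at 2.42 pass the 2-fold line at 4 months, and no gene's mean passes it at 1 or 2 months.

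The alcohol minus control signal of each gene, its excess, was compared across genes on the linear scale. Summed over the 10 genes it was 24046 on the Cy5 array and 12166 on the Cy3 array at 4 months, a mean of 18106 on a control sum of 88178. At 2 months the arrays gave 4721 and -1917, and at 1 month -1754 and -1047. Only at 4 months was the sum above 0 on both arrays, and its size depended on the signal scale, with 12231 at 4 months after scaling each channel to its 75th percentile, 37836 after normexp, loess and Aquantile normalization and 103353 before dye normalization. At 4 months Ctrc had an excess of 6643 ± 1523 (modeled error) on the Cy5 array and 2526 ± 1323 on the Cy3 array. Ctrb1 gave 4934 ± 3877 and 2435 ± 2922, past its error on the Cy5 array and below it on the Cy3 array. Ela2a gave 1406 ± 173 and 1077 ± 121, and Pnliprp1 577 ± 83.7 and 375 ± 55.5, both several times their error. Clps gave 2991 and 1184, Cel 2680 and 188, and Amy2 1478 and 2416. Ela1 gave 1610 and 745, Sycn 1160 and 1557, and Ctrl 567 and -336. An excess, like a level, depends on how each probe binds, so these sizes are not ranked between genes.

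The excesses of the genes were compared between arrays, between months and with the control signal. Between the 2 arrays of 4 months, which hold the same RNA, the Cy3 array excess was -0.593 times that on the Cy5 array for Ctrl and 1.63 times for Amy2, with a median of 0.478, but the modeled errors are wide. One line through 0 with a slope of 0.68 passed all 10 genes within 2 modeled errors, with Ctrc the farthest at 1.19 errors. For a gene such as Ctrl, with an excess of 567 and an error of 1495 on the Cy5 array, a departure could hardly show. Since both arrays hold the same RNA, the line compares the arrays and cannot decide whether the excesses were proportional across the genes. Across the 10 genes the excess on the 2 arrays had a Pearson r of 0.65 and a Spearman rho of 0.64 at 4 months, -0.75 and -0.68 at 2 months and 0.44 and 0.22 at 1 month. Across months the mean excess at 2 months was between -0.196 of the 4-month excess for Ctrl and 0.359 of it for Sycn, with 7 genes of the same sign in both months and a Pearson r of 0.60. That r was 0.30 without Ctrc and 0.12 without the Cy5 arrays, and the r of 0.65 between the 4-month arrays was -0.78 before dye normalization. Between 1 and 4 months r was -0.04 with 3 genes of the same sign. These correlations are over 10 genes that share pools, slides and labeling, and genes are not independent replicates. The excess was not a common multiple of the control signal across the genes. The 4-month excess was 1271% and 1216% of the control signal for Ela2a on the 2 arrays and 547% and 344% for Pnliprp1, while the other 8 genes lay between -3.86% for Ctrl and 45.3% for Ctrc.

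**Figure D3:**
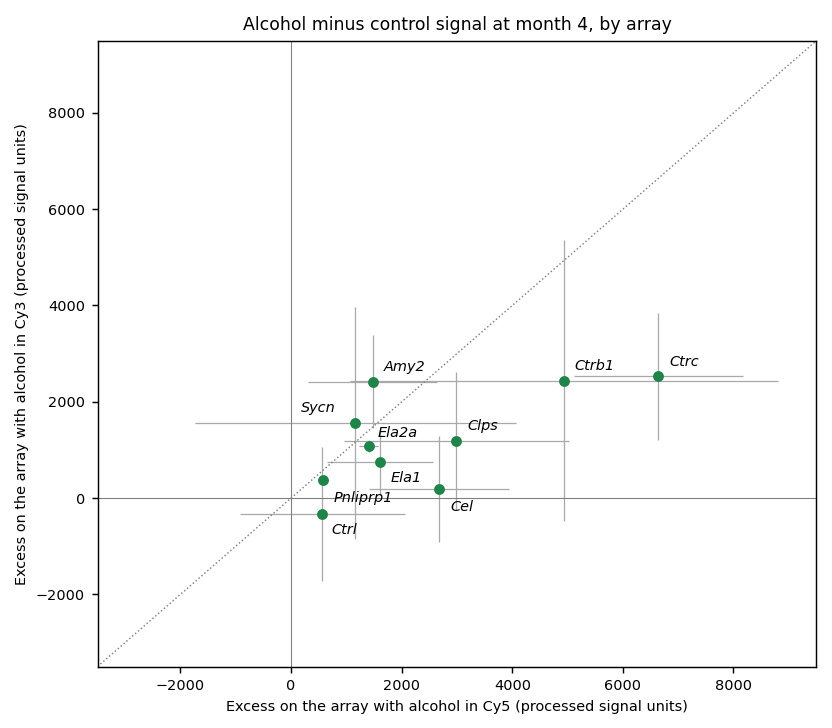
Alcohol minus control processed signal of each gene at 4 months on the Cy5 array (horizontal) and the Cy3 array (vertical), with bars for the modeled error of each array and a dotted line of equal excess. All genes but Ctrl, at 567 and -336, lie above 0 on both arrays, most of the bars are long against the distance to the other genes, and Ela2a and Pnliprp1 have the shortest bars.

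The pools were also followed over the months, with each signal taken as log2 over the 75th percentile of its channel. From 1 to 4 months 7 of the 10 genes rose at least 2-fold in the alcohol pools, where 8.38% of all probes did, and 2 of the 10, Cel and Sycn, did so in the control pools, where 8.69% of all probes did. The median change of the 10 genes was 1.19 in the alcohol pools and 0.56 in the control pools, against -0.54 and -0.51 for all probes. Ela2a, one of the 7, was not well above background at 1 month, so no size is given for its change. In the alcohol pools Pnliprp1, well above background at 1 month on 1 of 2 arrays, changed by 2.22, Cel and Sycn by 1.36, Ela1 by 1.29, Clps by 1.09 and Ctrc by 1.08. In the control pools neither Ela2a nor Pnliprp1 was well above background at 1 month, so no change is given for them, and Sycn changed by 1.23, Cel by 1.15 and Ela1 by 0.94. From 1 to 4 months the genes other than Ela2a and Pnliprp1 moved in the same direction in both arms except for Ctrb1, which changed by 0.31 and 0.00. From 1 to 2 months 1 of the 10 rose at least 2-fold in the alcohol pools (8.55% of all probes) and 0 in the control pools (8.68%). From 2 to 4 months 2 of the 10 rose at least 2-fold in the alcohol pools (3.62% of all probes) and 1 in the control pools (2.66%). Ela2a is counted in both, although at 2 months it was well above background on 0 of 2 arrays in the alcohol pool and 1 of 2 in the control pool. Since slide and month cannot be told apart, the part of the slide in these changes was not tested.

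Other acinar genes were read from lists of the same cell type. Of 7 further acinar proteases with a probe, 2 were raised at least 2-fold at 4 months by the brightest probe, where 0.472% of all genes were, and the median log2 ratio was 0.66. Cpb1, carboxypeptidase B, was at 2.17 ± 0.55, with 256 and 185 in the alcohol pool against 43.4 and 53.6, and the trypsinogen gene Prss3 was at 1.14 ± 0.59. Cpa1, carboxypeptidase A, was at 0.81 ± 0.17 and the trypsinogen gene Prss2 at 0.66 ± 0.30, short of 2-fold. Of 5 Reg genes, whose small secreted proteins are made by acinar cells under stress, 3 had ratios past 2-fold, namely Reg2 at 2.17 ± 0.27, Reg1 at 1.90 ± 0.37 and Reg3d at 2.32 ± 0.16. The control pool was not well above background for Reg3d on either array, so its ratio has only a bound, at least 1.89-fold higher in alcohol. Of 4 lipase and nuclease genes 0 were raised by the brightest probe, of 7 granule and inhibitor genes 0, and of 5 acinar transcription factors 0, with median log2 ratios of 0.37, 0.00 and -0.03. Ptf1a, the defining subunit of the PTF1 complex, was at 0.45 ± 0.28. The other transcription factors were Bhlhb8 at 0.06 ± 0.27, Rbpsuhl at -0.03 ± 0.15, Gata4 at -0.08 ± 0.01 and Nr5a2 at -0.25 ± 0.24. How far each of them reports acinar cells in liver RNA was not tested. Across the 28 genes of these lists 5 had ratios past 2-fold at 4 months by the brightest probe, or 4 without Reg3d, whose bound is short of 2-fold, and 0 were lowered, and at 1 and 2 months 0 were raised.

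As with Ela1, several of these genes had probes that differed in size at 4 months. The trypsinogen gene 2210010C04Rik was at 0.14 ± 0.54 by one probe and 2.04 ± 0.35 by the other. Pnlip, pancreatic lipase, was at 0.74 ± 0.53 and 1.69 ± 0.63, and Rnase1, the pancreatic ribonuclease, at -0.03 ± 0.70 and 1.72 ± 0.42. Of the members and the acinar lists, 8 genes had exactly 2 probes, and at 4 months the probe that was not the brightest had the higher ratio in 8 of the 8, among them Prss3 at 1.14 and 1.52. Among all 5825 genes with 2 probes that was so in 46.9%. At 1 month it was so in 1 of the 8 and at 2 months in 5. This comparison was chosen after the values were seen. By any probe 8 of the 28 genes were raised, against 0.601% of all genes, and the choice of probe therefore moved the count from 5 to 8, or from 4 to 7 without Reg3d.

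**Figure D4:**
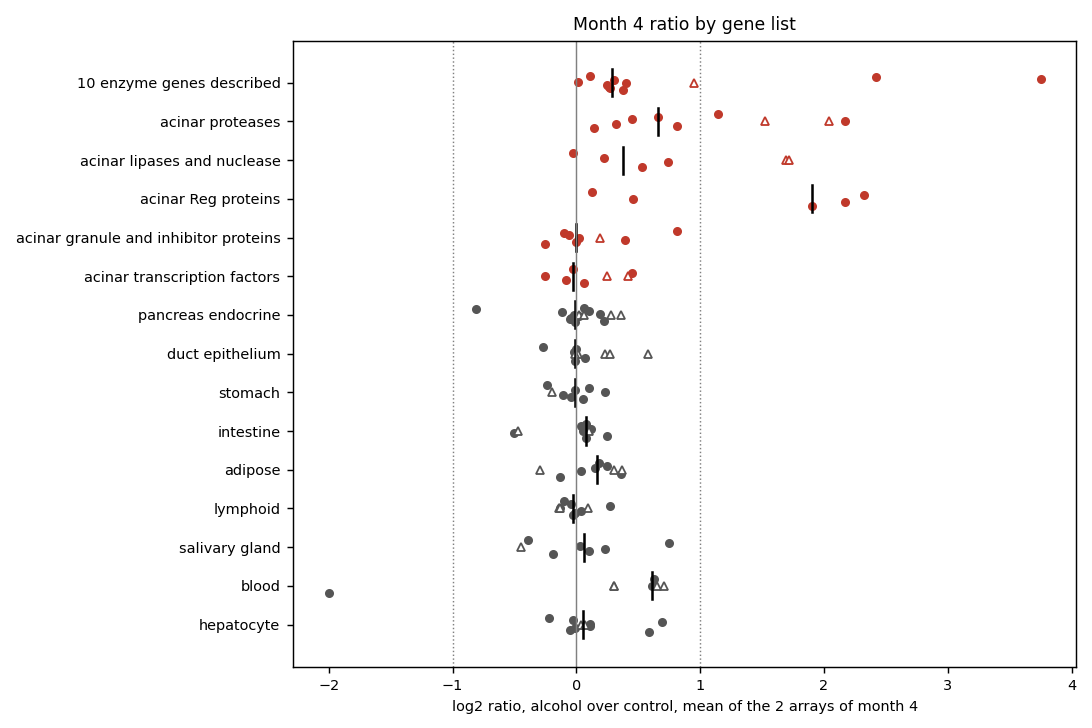
Log2 ratio of alcohol over control at 4 months (mean of the 2 arrays) for each gene of each list, with filled points for the brightest probe of a gene, open triangles for its other probes, a black bar at the list's median and dotted lines at 2-fold. The acinar lists (red) hold the genes past 2-fold, up to 3.75 for Ela2a, and no gene of the other lists (grey) passes 2-fold upward.

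Markers of other tissues were read beside them at 4 months. Raised at least 2-fold were 0 of 11 pancreatic endocrine genes, 0 of 6 duct, 0 of 7 stomach, 0 of 7 intestine, 0 of 6 adipose, 0 of 7 lymphoid and 0 of 6 salivary gland genes, with medians between -0.03 for the lymphoid genes and 0.16 for the adipose genes. Of 8 hepatocyte genes 0 were raised or lowered and the median was 0.05. Of 3 blood genes 1 was lowered, Alas2 of erythroid heme synthesis, at -2.00 ± 0.39, while the hemoglobin genes Hba-a1 at 0.61 ± 0.18 and Hbb-b1 at 0.63 ± 0.64 were above 0 on both arrays. At 1 month Hba-a1 was at 1.51 ± 0.20 and Hbb-b1 at 1.97 ± 0.43, while the median of the enzymes was -0.05. At 2 months they were at -0.10 ± 0.21 and -0.15 ± 0.39, and the enzyme median was 0.02. The part of blood content in the ratios of the enzymes was not tested. Hepatocyte markers were present in the pools, with the apolipoprotein gene Apoa1 at 27845 to 102014 and the transthyretin gene Ttr at 1627 to 5772 across all channels. The albumin gene, Alb1, read 24669 to 66084 on 5 arrays and only 1235 and 706 on the 4-month Cy5 array. Other probes of the lists also read low in both channels of that array, such as Ins1 at 807 and 829 against 10134 and 10391 on the 4-month Cy3 array, and Tff2 at 190 and 210 against 1579 and 2011. The ratios of Ela2a and Pnliprp1 were as high or nearly so on the 4-month Cy3 array alone, at 3.72 and 2.15. Ins2, the insulin gene of islet beta cells, read 33696 and 38255 in alcohol and 43300 and 28791 in control at 4 months by its brighter probe, with a log2 ratio of 0.02 ± 0.55. Of the 10 enzyme genes, 8 were well above background in all 12 channels, and 0 were saturated. A reading well above background does not show that the signal came from the named transcript alone, and this was not tested.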

How the data were processed

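Liver RNA pools of 6 mice were compared on 6 two-color arrays, 2 dye-swapped arrays for each of 3 months. The authors deposited Feature Extraction 9.1.1.1 output, in which each channel's signal intensity is background-subtracted and dye-normalized, with a modeled intensity error for each channel. The authors also deposited for each spot a log10 ratio (Cy5 over Cy3) and its modeled error, handled here as a score, and quality flags, used here to call spots well above background. A further deposited table holds log ratios of the same arrays, already turned to alcohol over control, and served as an alternative. Sample columns left unused numbered 0.

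Log ratios were turned to alcohol over control by the dye labels, converted to log2, and averaged first within a probe and then within the 2 arrays of a month. Control spots were left out. A gene with several probes is given by the brightest probe. With 1 pool per arm and month, and with genes chosen from these data, no p-value was computed. A gene was called raised or lowered at 2-fold. For pools that were not well above background, a bound on the alcohol over control ratio was taken, as the brighter pool's mean against the lowest signal well above background or the dim probe's own where higher, from channels after normexp (offset 50), loess and Aquantile normalization in limma 3.58.1 (R 4.3.3). Other values were computed in Python 3.11.15, and the averaging was tested on simulated data.

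The 10 genes and the 14 lists (110 genes, 89 with a probe) were chosen with earlier results of these data known. Named genes were all 10 members with every probe, list genes, and the 10 genes nearest to the members' profile. The profile is the median log2 ratio of the members on each array, and nearness is the root mean square difference over the 6 arrays among probes well above background in the alcohol channel of both 4-month arrays. Genes nearest to the mean profile of the raised members were added after the values were seen. Of the 11 probes 8 carried an accession that matched RefSeq. Alternatives were the normalization, the deposited table, error weighting, each array alone, a filter on dim probes, centring, the probe rule, the fold threshold and, for excesses, the signal scale.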

Additional observations from a re-analysis of the deposited data

Results flagged for a closer look

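For Amy2 and Ela1 both arrays of one month lay on the opposite side of 0 from both arrays of another month. Amy2 moved from -0.23 at 1 month to 0.38 at 4 months, a difference in log2 ratio of 0.61. Ela1 by its brighter probe moved from -0.05 to 0.30, a difference of 0.35, but the -0.05 is below its modeled error of 0.16. The other Ela1 probe had mixed signs at 1 month. It went from -0.43 at 2 months to 0.95 at 4 months, with both arrays of each month on one side of 0. The readings of Ela2a had the same pattern, with nominal differences of 4.05 between 1 and 4 months and 4.27 between 2 and 4 months. For Ela2a the size of these differences is not measured, and neither is the sign at 1 month, where neither pool was well above background. At 2 months only the control pool was, on 1 of 2 arrays. Its ratio there has only a bound, at least 1.23-fold lower in alcohol, which rests on that 1 control reading. None of these differences between months was tested, since both arrays of a month hold the same RNA.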

How the results depend on the processing

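The number of genes raised at least 2-fold (0, 0 and 2 at 1, 2 and 4 months) and the median log2 ratio did not change beyond 1.5 times (33 counts) or the spread between arrays (27 medians) under any alternative run, 1.5-fold and 3-fold thresholds included. A single array lies within that spread by construction. At 4 months Ela2a ranged from 3.37 to 3.75 and Pnliprp1 from 2.13 to 2.42 over 7 alternatives. Several of these could hardly move these genes. Each gene has a single probe, neither was dropped as dim, and the deposited table and the ratio of processed signals hold the same readings. Normexp with loess gave the lower ends, and error weighting gave 3.74 and 2.37. The counts of unmoved results here include such alternatives. Of the single-gene ratios, 261 moved by less than the spread between arrays and 6 by more, among them Ela2a at 4 months after normexp and loess and Ela1 at 4 months averaged over its probes, at 0.62.

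The summed excess depended on the signal scale, and the cause was not tested. Before dye normalization the months 1, 2 and 4 gave 9790, -6778 and 103353. After normexp, loess and Aquantile it was -7482 at 1 month and 37836 at 4 months, and with each channel scaled to its 75th percentile it was -2181 at 1 month and 12231 at 4 months. At 2 months these scales gave 4079 and 816. Each array alone gave -1754 to -1047 at 1 month, -1917 to 4721 at 2 months and 12166 to 24046 at 4 months, so the sign at 2 months depended on the array. The correlation of excesses between the 4-month arrays was -0.78 before dye normalization and 0.41 on the log2 scale, which leaves out Ctrl. Between 2 and 4 months it was -0.13 before dye normalization, 0.83 on the log2 scale over the 7 genes with a positive excess in both months, and 0.30 without Ctrc. With one array of each pair left out it ranged from 0.12 to 0.64, the lower value without the Cy5 arrays.

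No test was made, so there was no paired test. Each ratio already pairs the pools of a month within an array, and the arrays of a month are named by their dyes. With 1 pool of mice per arm and month, the spread between mice is not measured. A probe near background, such as Ela2a at 1 and 2 months, limits what its ratio can show.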

Other observations

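Among 23305 probes well above background in the alcohol channel of both 4-month arrays, the 10 genes nearest to the median profile of the enzymes over the 6 arrays were at a root mean square log2 difference of 0.054 to 0.081. They included Tmem68, Brf2, Hapln4 and Cd163, and 0 of the 10 were in the acinar lists. That profile is nearly flat, with a 4-month median of 0.29. Nearest to the mean of Ela2a and Pnliprp1, a profile chosen after its values were seen, were, among others, 1810049H19Rik, Sult3a1 and Cpb1, at differences of 0.551 to 0.663. Of the nearest 10, 3 were in the acinar lists, namely Cpb1, Reg1 and Reg3d, and the ratio of Reg3d has only a bound. Candidates had to be well above background where this profile is high, and Ela2a itself was at or near background at 1 and 2 months, so the list is a description only. Sult3a1, a sulfotransferase, was at -0.47, -0.14 and 2.14 at 1, 2 and 4 months. Cyp2c29, a cytochrome P450 of hepatocytes and also among the 10, was at 0.63, 0.81 and 2.49.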
